A study of Mus musculus with 6 samples.

Results

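Cholesterol synthesis was followed through 7 genes in newborn mouse skin whose keratinocytes carry permanently active Nrf2, a transcription factor of antioxidant defence. The genes are Hmgcs1, Idi1, Fdps, Sqle, Lss, Cyp51 and Insig1. They were chosen by name, with earlier results of these data known. All probe sets of the array annotated to 1 of these 7 symbols were taken, which gave 17 of 45037 non-control probe sets and 7 of 18193 genes. RNA came from the whole back skin of 6 female littermates killed on postnatal day 2.5, with 1 Affymetrix array for each mouse. In 3 mice (K5cre-caNrf2, tg/tg in the growth protocol and tg/g in the genotype cell) the keratin 5 promoter drives Cre recombinase in keratinocytes, which turns on active Nrf2 (caNrf2) there. The 3 control mice (K5cre-wt, tg/wt) lack caNrf2, and all 6 were of mixed FVB/N and C57BL/6 background. The titles of all 6 samples also hold the word strong, which is not explained. The series title asks for target genes of Nrf2 in skin. In whole skin the dermis, fat and muscle contribute RNA beside the keratinocytes in which K5cre acts. Fewer cells of a type and less RNA per cell cannot be told apart.

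Cells build cholesterol from acetyl-CoA through mevalonate and the isoprenoids to squalene, which is closed into the sterol ring and trimmed to cholesterol. SREBP2, a transcription factor held in the endoplasmic reticulum while cholesterol is plentiful, moves to the nucleus when sterols are scarce and raises the genes of the whole pathway and of cholesterol uptake. Keratinocytes make much of their cholesterol themselves, and with ceramides and free fatty acids it forms the lipid layers of the skin barrier.

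The 7 genes share this control, and the RefSeq promoter table (GRCm38.p6) held the start site region of 5 of them, from 250 bases before to 50 after the start. The promoters of Hmgcs1 (chr13:119690101-119690400, plus strand), Cyp51 (chr5:4104648-4104947, minus strand) and Insig1 (chr5:28071162-28071461, plus strand) are printed, the first as the 1 promoter with the sterol motif and the other 2 as those of the largest differences between the groups. Capitals mark matches, on either strand, to the sterol regulatory element TCACNCCAC, the CCAAT box or the E-box CACGTG.
Hmgcs1: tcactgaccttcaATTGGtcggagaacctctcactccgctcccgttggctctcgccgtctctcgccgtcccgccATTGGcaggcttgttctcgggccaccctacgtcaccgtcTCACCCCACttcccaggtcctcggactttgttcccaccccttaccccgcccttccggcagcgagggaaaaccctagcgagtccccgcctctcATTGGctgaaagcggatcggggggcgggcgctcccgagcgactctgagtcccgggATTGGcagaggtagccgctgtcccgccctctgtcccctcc
Cyp51: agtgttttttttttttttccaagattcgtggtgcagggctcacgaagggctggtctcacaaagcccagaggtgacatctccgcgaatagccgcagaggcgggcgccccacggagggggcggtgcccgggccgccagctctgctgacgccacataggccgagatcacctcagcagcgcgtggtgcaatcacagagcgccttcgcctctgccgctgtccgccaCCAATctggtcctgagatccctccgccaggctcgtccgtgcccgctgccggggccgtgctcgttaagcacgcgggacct
Insig1: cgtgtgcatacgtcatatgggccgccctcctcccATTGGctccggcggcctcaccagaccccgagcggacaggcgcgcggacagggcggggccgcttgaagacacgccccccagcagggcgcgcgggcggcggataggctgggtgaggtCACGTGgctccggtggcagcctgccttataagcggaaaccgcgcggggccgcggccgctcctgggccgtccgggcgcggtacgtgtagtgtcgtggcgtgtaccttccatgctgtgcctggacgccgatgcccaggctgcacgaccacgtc
The pattern TCACNCCAC, used here for the sterol regulatory element that SREBP binds, was found once, in Hmgcs1 (TCACCCCAC, beginning at position -137 from the start). It was found in 1.24% of all 32851 promoters of this length. A CCAAT box, bound by NF-Y, stood in all 5 promoters and in 37.4% of all promoters. Hmgcs1 held 4 of them and Idi1 held 2. The E-box of Insig1 began at position -101, and 7.15% of all promoters held 1. The antioxidant response element TGACNNNGC, the site of Nrf2, was found in 0 of the 5 promoters and in 12.4% of all. These are letter matches in a short window, and the motifs do not overlap one another here. Only 1 pattern was searched for each site. A promoter without a match can therefore still hold a site of other letters for SREBP or Nrf2.

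In caNrf2 skin no cholesterol synthesis gene passed the test, and the differences were small. All 7 had a lower mean in caNrf2 than in control skin, the change running from -16.7% (Insig1) to -5.76% (Idi1). In limma with Benjamini-Hochberg adjustment over 18193 genes, 0 of 7 were called at an adjusted p under 0.05, against 3.66% of all genes. At an unadjusted p under 0.05, 3 of the 7 were lower and 0 higher, against 9.55% of all genes lower and 10.8% higher. In 5 of the 7 every caNrf2 array lay below every control array, which held for 13.0% of all genes. The median log2 fold change of the 7 was -0.11, against -0.0041 over all genes. Since the 7 were chosen with earlier results known, these counts and the median are a description of them, not a test.

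Hmgcs1 makes HMG-CoA, the substrate of the enzyme that sets the pace of the pathway. Its intensity, in RMA units on a linear scale, was 6090.2, 6120.1 and 6417 in the control arrays and 5753, 5546 and 5963 in the caNrf2 arrays. The groups did not overlap, and their means were 6209 ± 181 and 5754 ± 209 (SD, n = 3). The log2 fold change was -0.11 ± 0.06 (SE; 95% interval -0.24 to 0.02; limma, adjusted p = 0.327).

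Idi1 isomerises the 5-carbon building block of the isoprenoids, and Fdps joins these blocks to farnesyl diphosphate. Idi1 read 2085, 2105 and 2039 in control and 1946, 1778 and 2165 in caNrf2 skin. The caNrf2 arrays lay on both sides of the controls, with a SD of 194 against 33.6, and the log2 fold change was -0.09 ± 0.08 (limma, adjusted p = 0.563). Fdps read 3179, 3120.5 and 2881 in control and 2751.5, 3013 and 2748 in caNrf2 skin. Here the groups overlapped through caNrf2 replicate 2 and control replicate 3, and the log2 fold change was -0.11 ± 0.07 (limma, adjusted p = 0.388).

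Sqle adds oxygen to squalene, and Lss closes the product into lanosterol, the first sterol. Sqle read 2165, 2108 and 2188 in control and 2089, 1974 and 1969.95 in caNrf2 skin, so the groups were separate but close, at -0.10 ± 0.06 on the log2 scale (limma, adjusted p = 0.359). Lss read 782, 764 and 695 in control and 614, 693 and 658 in caNrf2 skin. Control replicate 3 nearly met caNrf2 replicate 2. The log2 fold change of Lss was -0.19 ± 0.07 (95% interval -0.35 to -0.03; limma, adjusted p = 0.181).

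Cyp51 removes a methyl group from lanosterol. It had the smallest p of the 7 genes. Its control arrays read 979, 947 and 975 and its caNrf2 arrays 865, 804 and 865, with means of 967 ± 17.1 and 845 ± 35.0 (SD, n = 3). The gap between the groups was larger than the range within either, and the log2 fold change was -0.20 ± 0.06 (95% interval -0.33 to -0.06; limma, adjusted p = 0.109).

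Insig1 is not an enzyme. It holds SREBP in the endoplasmic reticulum and is itself raised by SREBP, so it is often read as a gauge of SREBP activity. It read 637, 572 and 544 in control and 473, 531 and 456 in caNrf2 skin. Its groups were separate, although control replicate 3 lay near caNrf2 replicate 2, and its means were 584 ± 47.4 and 487 ± 39.3. Its log2 fold change, -0.26 ± 0.08 (95% interval -0.45 to -0.08; limma, adjusted p = 0.116), was the largest in size among the 7. With an intensity trend and robust variances in limma, Cyp51 and Insig1 passed, at adjusted p = 0.0484 and 0.045. Over the other 12 processing alternatives at that threshold neither passed, and Cyp51 reached at most an adjusted p = 0.296 and Insig1 0.336.

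Over the brightest probe set of each gene, the lowest bound of the 95% intervals was -26.6% for Insig1, and the highest was 6.06% for Idi1. For Hmgcs1 the interval ran from -15.5% to 1.57%, and for Sqle from -14.6% to 2.05%. Other probe sets reached further, to -33.1% for Hmgcs1 (1441536_at) and to 32.3% for Idi1 (1423804_a_at).

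**Figure D1:**
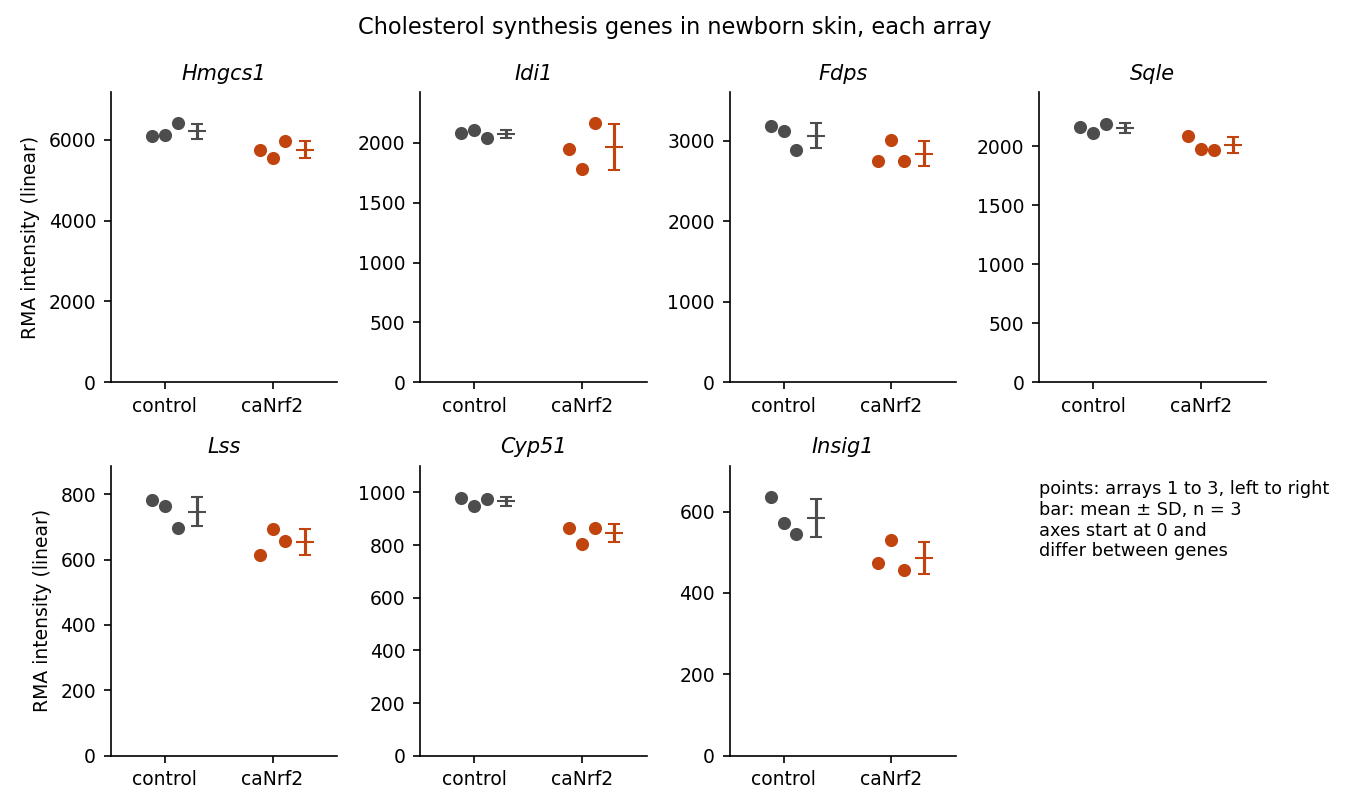
Intensity of the brightest probe set of each of the 7 genes (RMA intensity, linear axis from 0) in control and caNrf2 skin, with 1 point per array and a bar for mean ± SD (n = 3). The caNrf2 points lie below all control points in 5 genes, and the groups overlap in Idi1 and Fdps.

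The genes did not move as a block between littermates of 1 genotype. Lss, Fdps and Insig1 were low in control replicate 3, at -0.10, -0.09 and -0.10 from their control mean on the log2 scale, while Hmgcs1 was high there at 0.05 and Sqle at 0.02. In caNrf2 replicate 2 the same 3 genes were high, at 0.08, 0.09 and 0.13 from the caNrf2 mean, while Idi1 (-0.14), Cyp51 (-0.07) and Hmgcs1 (-0.05) were low. The mean over the 7 genes lay at -0.16, -0.15 and -0.14 from the control mean in the caNrf2 arrays, and at 0.04, -0.0034 and -0.03 in the controls.

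The 5 measured genes outside all lists whose deviations from their own group mean followed the mean of the 7 most closely were Emc1, Galc, Zswim3, Mdm1 and Bbs4 (Pearson r from 0.992 to 0.996 over 6 arrays, given as a description). None of these 5 was called in limma. The arrays share their litter and their normalization, and among 18193 genes some follow any pattern of 6 arrays closely.

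Several probe sets measured the same gene in 5 of the 7. Of the 17 probe sets, 16 had a lower mean in caNrf2 skin, and 10 had every caNrf2 array below every control array, against 11.7% of all probe sets. In limma over 45037 probe sets 0 of 17 were called, against 1.68% of all, and 8 were lower at an unadjusted p under 0.05, against 8.53% of all. Probe sets of 1 gene share its RNA and are not replicates.

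For Hmgcs1 all 5 probe sets were lower, from -0.36 to -0.06 on the log2 scale. Its brightest, 1433445_x_at, is of a class that can also bind similar sequences, and it gave a smaller difference than 1433443_a_at (-0.25 ± 0.07) and 1433446_at (-0.24 ± 0.07), both with separate groups. The dim 1441536_at read 129, 125 and 129 in control and 117, 94.5 and 89.1 in caNrf2 skin, at -0.36 ± 0.10. The adjusted p of these 3 Hmgcs1 probe sets lay between 0.107 and 0.122 (limma, over all probe sets).

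For Lss the second probe set, 1426913_at, read 350.1, 388 and 313 in control and 284, 304 and 271 in caNrf2 skin, a log2 fold change of -0.29 ± 0.09 (limma, adjusted p = 0.153). The brightest Lss probe set is of a class shared between transcripts. For Cyp51 the second, 1422533_at, gave -0.22 ± 0.07, close to the brightest. The dimmest probe sets of Lss and Cyp51, with arrays between 41.3 and 72.1, overlapped between the groups at -0.09 and -0.0035.

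Idi1 was the exception. Its second probe set, 1423804_a_at, read 709, 893 and 957 in control and 809, 1001.3 and 988 in caNrf2 skin, a log2 fold change of 0.13 ± 0.12 that overlapped between the groups, so the direction of Idi1 depended on the probe set. The second Fdps probe set read 6.95 to 9.02 on all arrays, in the range of 14 of 20 probe sets of Y-linked genes that stayed under 20 in these female mice, and carried no usable signal.

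**Figure D2:**
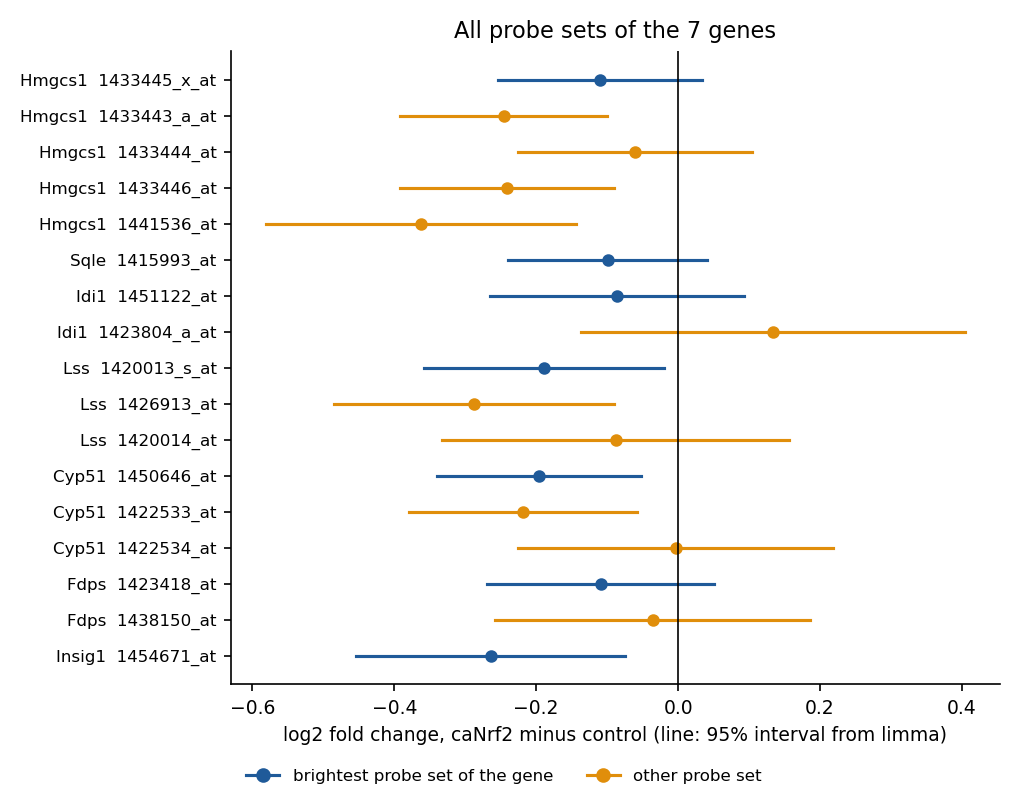
Log2 fold change of all 17 probe sets of the 7 genes, caNrf2 minus control, with the 95% interval from limma over all probe sets. Points for 16 probe sets lie left of 0, and the second Idi1 probe set lies at 0.13.

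A small downward difference was common among bright genes. Of the 4949 genes at least as bright as the dimmest of the 7, 63.4% had a lower mean in caNrf2 skin, against 51.4% of all genes, and their median log2 fold change was -0.03. Every caNrf2 array lay below every control array in 17.5% of them. The middle 50% of these bright genes ran from -0.09 to 0.03, and 6 of the 7 log2 fold changes lay below that range, all but Idi1. The upper quartile of each array lay below the intensities of the brightest probe sets of the 7 genes. It was between 325 and 328 on the caNrf2 arrays and between 334 and 341 on the control arrays. The deposited values themselves were thus slightly lower at that quartile. With a further quantile normalization, which makes the arrays equal there, 5 of the 7 moved toward 0 (Insig1 to -0.23, Cyp51 to -0.17, Lss to -0.16, Sqle to -0.09 and Idi1 to -0.08), while Hmgcs1 moved to -0.13 and Fdps to -0.12. The median of the 7 went from -0.11 to -0.13 with it, and that over all genes from -0.0041 to 0.0058. The part of this difference between arrays in the values of the 7 was not tested further.

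**Figure D3:**
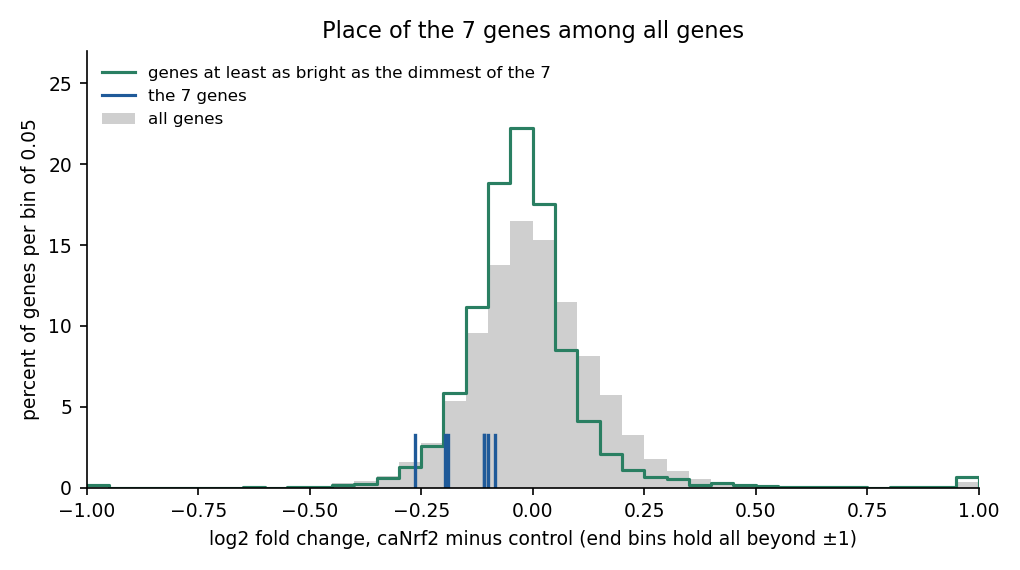
Log2 fold changes of all 18193 genes (grey bars) and of the 4949 genes at least as bright as the dimmest of the 7 (green line), as percent of genes per bin of 0.05, with the 7 genes as blue ticks. All 7 ticks lie left of 0, between -0.26 and -0.09, and 6 of them lie below the middle 50% of the bright genes.

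Of 16 further enzymes listed for sterol synthesis 13 were measured, and the others are not analysed here. None was called in limma (0 of 13 at an adjusted p under 0.05, against 3.66% of all genes). At an unadjusted p under 0.05, 1 of the 13 was higher and 0 lower, against 10.8% and 9.55% of all genes. The median log2 fold change of the 13 was -0.04, and 10 of 13 had a lower mean in caNrf2 skin. Msmo1, which removes methyl groups after Cyp51, was closest to the 7 at -0.11 ± 0.06, and Fdft1, which makes squalene, gave -0.06 ± 0.07. Hsd17b7, a reductase of a late step, was higher in every caNrf2 array. It read 938, 934 and 881 in control and 1046, 999.8 and 1036 in caNrf2 skin, at 0.16 ± 0.06 (limma, adjusted p = 0.161). The mevalonate kinase Mvk gave 0.10 ± 0.07 and Dhcr7, which makes cholesterol in the last step, 0.05 ± 0.06. The steps of the pathway thus lay on both sides of 0, with none past the threshold.

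**Figure D4:**
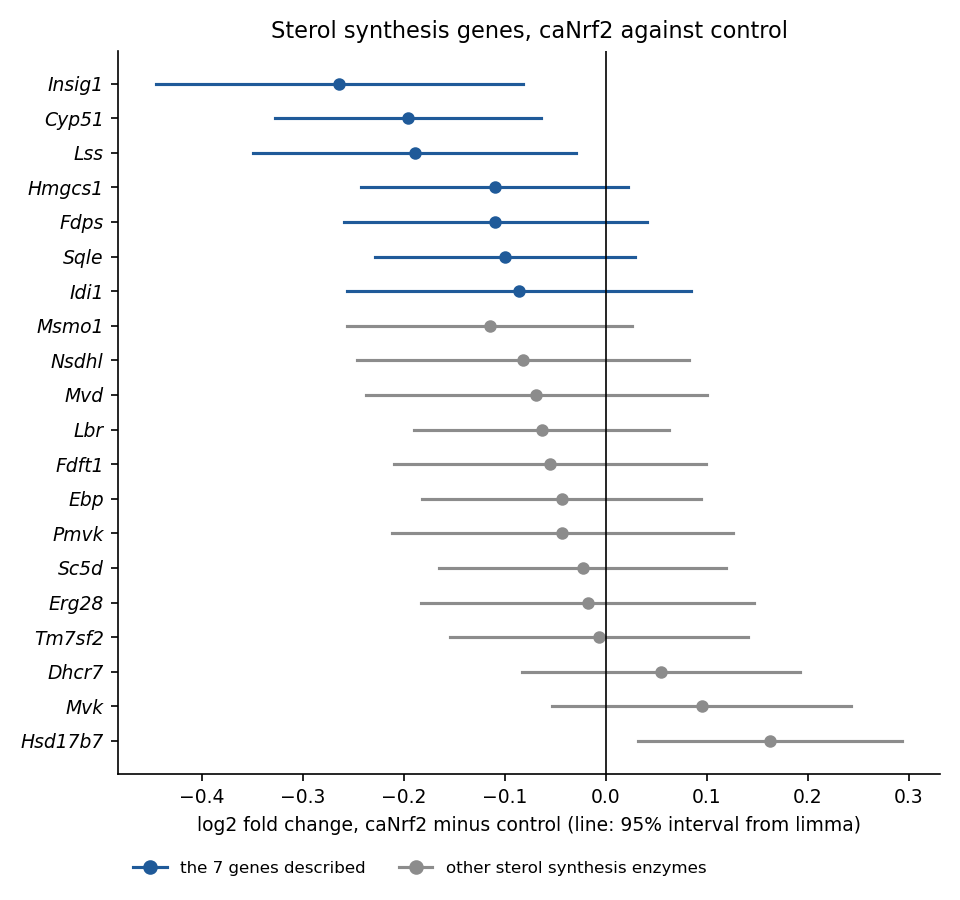
Log2 fold change, caNrf2 minus control, of the 7 genes (blue) and 13 other sterol synthesis enzymes (grey), with 95% intervals from limma. The intervals of Insig1, Cyp51 and Lss lie below 0, that of Hsd17b7 lies above 0, and the other 16 include 0, before adjustment for the number of genes.

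The regulators of the pathway gave no call either, 0 of 7 measured in limma against 3.66% of all genes, with 1 higher at an unadjusted p under 0.05, against 10.8% of all. Srebf2, which codes for SREBP2, read 962, 1089 and 861 in control and 919.7, 919.1 and 896 in caNrf2 skin, at -0.08 ± 0.08, and Srebf1 gave -0.05 ± 0.06. Insig2, a relative of Insig1 with the same anchoring role, stood apart from the 7. It read 1584, 1538 and 1524 in control and 1875, 1723 and 1983 in caNrf2 skin. All caNrf2 arrays lay above the controls, and the log2 fold change was 0.26 ± 0.07 (limma, adjusted p = 0.0659). Its 2 other probe sets gave 0.35 ± 0.07 and 0.17 ± 0.07. Insig2 passed in 5 of 13 alternatives tried after its value was seen.

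Among genes of cholesterol uptake and lysosomal transport, 1 of 10 measured rose and 0 fell in limma, against 2.26% of all genes higher and 1.39% lower. The gene was Lrp8, a receptor for apolipoprotein E and reelin. It read 98.2, 91.6 and 94.3 in control and 177, 166 and 179 in caNrf2 skin. The groups were far apart, with a log2 fold change of 0.88 ± 0.06 (limma, adjusted p = 3.26e-05), and it passed in all 13 alternatives. Its other probe sets, dim in both groups, gave 0.64 ± 0.07 and 0.31 ± 0.10. The median of the list was -0.0044. The HDL receptor Scarb1 gave 0.14 ± 0.06 and Npc1, which exports cholesterol from lysosomes, 0.01 ± 0.06. Stard4, a carrier of cholesterol raised by SREBP2, gave -0.14 ± 0.07.

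Efflux and esterification had 0 calls among 9 measured genes in limma, against 3.66% of all genes. At an unadjusted p under 0.05, 1 of the 9 was higher and 1 lower, against 10.8% and 9.55% of all genes. The lower was the efflux pump Abca1, a target of the oxysterol receptors LXR, which read 1394, 1348 and 1450 in control and 1255, 1138 and 1231 in caNrf2 skin. All of its caNrf2 arrays lay below the controls (-0.21 ± 0.06; limma, adjusted p = 0.109). Its other probe sets gave -0.25 ± 0.09 and -0.38 ± 0.12, neither of them called. Abca1 passed in 1 of 13 alternatives, that with an intensity trend and robust variances. Sult2b1, which makes the cholesterol sulfate of the cornified layer, was the higher, at 0.19 ± 0.06 (limma, adjusted p = 0.137). In the non-sterol branches that use mevalonate products for ubiquinone, dolichol and prenylated proteins, limma gave 0 calls in 7 genes, against 3.66% of all. At an unadjusted p under 0.05 it gave 0, against 10.8% of all genes higher and 9.55% lower. The median of this list was -0.03.

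Genes of fatty acid synthesis that SREBP also controls were listed apart. Of 12 measured, 3 rose and 2 fell in limma, against 2.26% of all genes higher and 1.39% lower. Malic enzyme Me1, which supplies NADPH and is also a known target of Nrf2, rose by 0.83 ± 0.06 on the log2 scale, its mean intensity being 1279.6 ± 60.6 in control and 2281 ± 97.3 in caNrf2 skin (n = 3; limma, adjusted p = 6.39e-05), and it passed in all 13 alternatives. The desaturase Fads2 rose by 0.40 ± 0.07 and the acetyl-CoA synthetase Acss2 by 0.37 ± 0.08. The elongases Elovl6 and Elovl5 fell, with log2 fold changes of -0.33 ± 0.07 and -0.30 ± 0.07 (limma, adjusted p = 0.0353 and 0.0464). Fads2 and Elovl6 lost the call without any of caNrf2 replicates 2 and 3 and control replicates 1 and 3 (adjusted p up to 0.0746 and 0.128), Acss2 with each of 5 arrays left out, control replicate 1 excepted (up to 0.0972), and Elovl5 without any of the 6 (0.0583 to 0.148). With all probe sets of a gene averaged, Elovl6 did not pass either (adjusted p = 0.0722). Fatty acid synthase Fasn, the central enzyme, gave -0.04 ± 0.08. The list had a median of -0.07, and whether it differs from the 7 cholesterol genes was not tested.

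**Figure D5:**
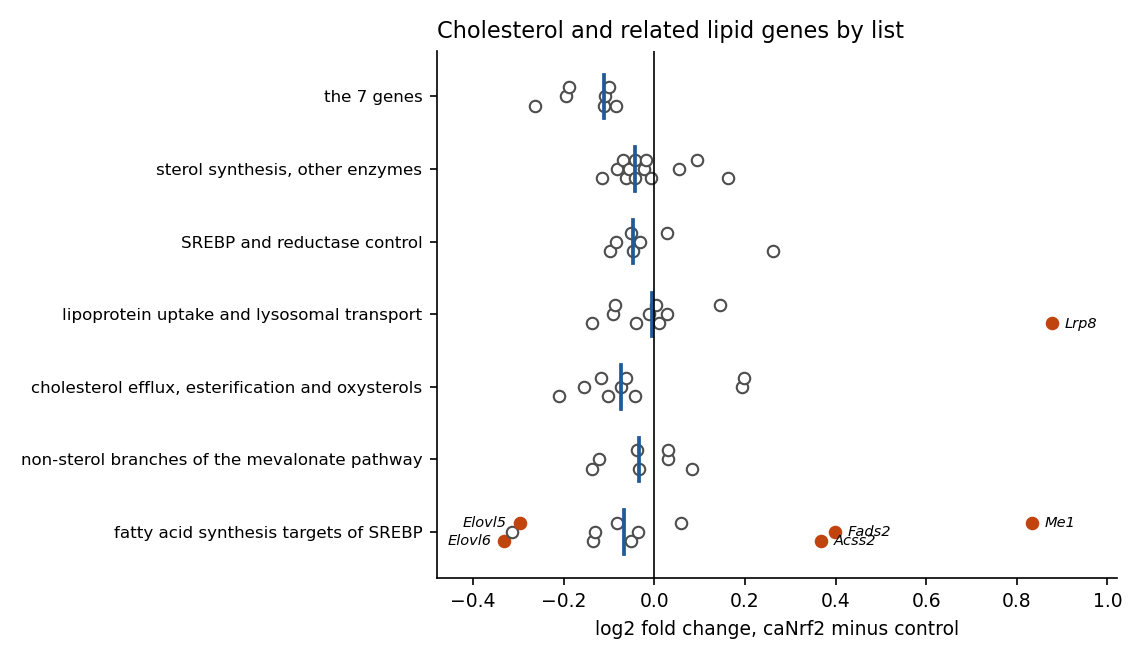
Log2 fold change, caNrf2 minus control, of each measured gene of the 7 and of 6 lists of cholesterol and lipid genes (circles; filled and named where limma called the gene at an adjusted p under 0.05), with the median of each list as a blue bar. The filled points are Lrp8 and 5 fatty acid synthesis genes, and no gene of cholesterol synthesis is filled.

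Markers of the cells of skin were read beside these values. Keratinocyte and fibroblast genes were bright in both groups, with Krt10 between 19311 and 20875 and Col1a1 between 13695 and 15427 on all arrays. Suprabasal keratinocyte markers had 0 calls of 8 in limma, against 3.66% of all genes called. They had 0 at an unadjusted p under 0.05, against 9.55% of all genes lower and 10.8% higher. Their summed intensity was 101269 to 104447 in control and 103864 to 108290 in caNrf2 skin. Of 5 measured markers of sebocytes, cells rich in sterol and fatty acid synthesis, 2 fell in limma, against 1.39% of all genes lower. They were the lipid enzymes Elovl3 (-0.38 ± 0.07) and Far2 (-0.39 ± 0.08; limma, adjusted p = 0.015 and 0.0274). At an unadjusted p under 0.05, 3 of the 5 were lower, against 9.55% of all genes. The summed intensity of the 5 was 4536 to 5016 in control and 4242 to 4412 in caNrf2 skin. Far2 lost its call with each of 5 arrays left out, control replicate 3 excepted (adjusted p up to 0.0856), and Elovl3 without caNrf2 replicate 3 or control replicate 1 (up to 0.0675). The melanocortin receptor Mc5r, a marker of mature sebocytes, gave -0.12 ± 0.07, Cidea -0.17 ± 0.07 and Dgat2 0.01 ± 0.06, none of them called. The median of the sebocyte list was -0.17. All 8 measured hair follicle markers had lower means in caNrf2 skin. None of them was called in limma, against 1.39% of all genes called lower. At an unadjusted p under 0.05, 6 of them were lower, against 9.55% of all genes. Their sums were 45597 to 48200.0 in control and 40631 to 41664 in caNrf2 skin. The dimmest listed marker was Cd207, with a mean of 54.9 in control and 70.8 in caNrf2 skin. In these female mice the group means of 20 probe sets of Y-linked genes ran from 6.46 to 61.6. RNA quality was read from the log2 signal of the 3' over the 5' probe sets for Actb and Gapdh. Control arrays gave 0.49 ± 0.01 and caNrf2 arrays 0.52 ± 0.01 for Actb, against -0.21 ± 0.01 and -0.18 ± 0.02 for Gapdh (SD, n = 3). The part of these cell types and of RNA quality in the small differences of the 7 genes was not tested.

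The other marker lists had at most 1 call each in limma, against 3.66% of all genes called in either direction. Leptin (Lep), a hormone of fat cells, fell by 0.58 on the log2 scale from 183 ± 5.82 to 123 ± 7.56 (limma, adjusted p = 0.000949), the 1 call of 5 adipocyte markers, while Adipoq gave -0.04 ± 0.07. Krt15 of basal keratinocytes (-0.30 ± 0.06) and Mlana of melanocytes (-0.38 ± 0.09) fell. Cd207 of Langerhans cells rose by 0.36 ± 0.08 at low intensity. Of 6 basal markers 3 had a lower mean, the list median was -0.03, and Itgb4 gave 0.33 ± 0.08 (limma, adjusted p = 0.0657). Of 6 leukocyte markers, Cd207 among them, 3 had a lower mean and the median was -0.0020. Ptprc of that list gave -0.24 ± 0.07 (limma, adjusted p = 0.109). All 5 melanocyte markers were lower at an unadjusted p under 0.05 (9.55% of all genes), with a median of -0.20 and separate groups in 4, against 13.0% of all genes with every caNrf2 array lower. The calls of Krt15, Mlana and Cd207 were lost without 4, 5 and 6 of the single arrays (adjusted p up to 0.0825, 0.158 and 0.109), and that of Mlana also with a further quantile normalization (adjusted p = 0.0608). Fibroblast, muscle, endothelial and Schwann cell markers had 0 calls in limma. At an unadjusted p under 0.05, 0 of them passed, against 9.55% of all genes lower and 10.8% higher.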

How the data were processed

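Biotinylated cRNA from 2 ug of total RNA was hybridised to Affymetrix arrays, per the labels' protocols. The authors deposited linear intensity values per probe set, computed by RMA per the submitters' processing notes. Its version and any scaling after it were not stated. RMA makes the distributions of arrays near-equal, so a shift of most transcripts could not be seen.

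Groups follow the sample titles, since the treatment cell names caNrf2 on control samples too. Of 45101 probe sets, 64 were controls, 34945 had 1 symbol and 932 several. Symbols were updated by Entrez identifier from the RefSeq gene table (GRCm38.p6; 34741 matched), and the brightest probe set stood for a gene. Log2 intensities were fitted with limma 3.58.1 (R 4.3.3; lmFit, eBayes, group as the only term), adjusted by Benjamini-Hochberg over 18193 genes and, separately, 45037 probe sets. The fit was tested on simulated data, and 3 arrays per group limit its precision.

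The 7 genes, the 6 pathway lists (58 of 68 entries measured) and 11 marker lists (62 of 68) were chosen with earlier results of these data known, and the motifs with the promoters in view. Named are the 7 genes, called genes of the lists, a few defining genes, and the 5 genes outside the lists (mean intensity at least 64) that correlate most with the 7. Msmo1, Fdft1, Mvk, Hsd17b7, Dhcr7, Insig2, Scarb1, Stard4, Sult2b1, Mc5r, Cidea, Dgat2, Krt10, Col1a1, Adipoq, Itgb4 and Ptprc were named after their values were seen. Alternatives covered scale, normalization, a filter on dim genes, probe set choice, variance model, array weights, a replicate block, threshold and single arrays.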

Additional observations from a re-analysis of the deposited data

How the results depend on the processing

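With an intensity trend and robust variances 2 of the 7 genes (Cyp51 and Insig1) and 2 of their 17 probe sets were called, and 501 genes in all were lower. At least 1 probe set of the 7 was called with log2(value + 16) (1) and with only mean intensities of at least 64 (1; 405 genes lower). Leaving out single arrays gave 0 to 1 probe sets, 226 to 316 genes higher (412 with all), 72 to 196 lower (253 with all), and a median of the 7 from -0.16 to -0.12. That median was -0.14 with all probe sets of a gene averaged and -0.14 with array weights. At an adjusted p under 0.1, 719 genes were higher and 529 lower, and 0 of the 7. Of 91 values of the 7 genes under 13 alternatives, 90 kept their sign. Idi1 reversed, to 0.024 with averaged probe sets and to 0.13 with its second probe set. No count of the other sterol synthesis genes left 0. The cause of these changes was not tested. The labels do not pair same-numbered mice. Correlations of their deviations were 0.03, 0.13 and 0.09, which do not settle whether the numbers pair mice. With the replicate block 353 genes were higher and 237 lower, with 0 of the 7 and a median of -0.11. The block ended the calls of Acss2, Elovl5, Far2 and Mlana (adjusted p = 0.0540, 0.0580, 0.0519 and 0.0619). With 3 arrays per group, differences of the size seen here can be missed.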

Other observations

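Insig1 and Insig2, relatives that both retain SREBP, differed in opposite directions, a pair chosen after its values were seen. Within each array the log2 intensity of Insig2 minus that of Insig1 was 1.31, 1.43 and 1.49 in control and 1.99, 1.70 and 2.12 in caNrf2 skin. The groups did not overlap, and the difference of their means was 0.53, which is given with no test since the pair was picked for it. Levels of 2 probe sets cannot be compared with each other, so only the shift between groups can be read. Neither gene was called in limma.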
